A study of Homo sapiens with 12 samples.

Results

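PHGDH, PSAT1, PSPH, SHMT1, SHMT2, MTHFD1, MTHFD2 and MTHFD1L are enzymes of serine synthesis and of the folate one-carbon pathway. The 8 genes were taken as a list by their known function, out of 19974 protein-coding genes on chromosomes 1 to 22 and X. Histone marks around them were compared in Huh7 cells, an established human hepatocellular carcinoma line, genotype WT. The cells were held for 48 h at 0 µM or 15 µM choline, in a custom DMEM that lacks choline chloride and has B-27 in place of serum. Chromatin immunoprecipitation with sequencing gave 1 library per mark and dose, for H3K27ac, a mark of active promoters and enhancers, and H3K4me1, a mark of enhancers. With 1 line and 1 library per group there is no replicate check and no test between the doses, so every difference compares these libraries.

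The files list summits, the single base at the top of each peak. The H3K27ac lists held 37946 summits at 0 µM and 29305 at 15 µM, a ratio of 0.772, and the H3K4me1 lists held 343156 and 349202, a ratio of 1.02. Each summit carries the authors' own score on a −log10 scale (whether of p or of q is not known here), with a median of 10.9 and 10.3 in the H3K27ac lists and of 3.48 and 3.47 in the H3K4me1 lists. Scores are used only to rank or filter summits within a list, and read depth is unknown. The 95% intervals below are exact Clopper-Pearson intervals, cover counting error only and treat neighbouring summits as independent, which they are not. The labelled cell type was checked on markers. In the 50 kb windows of 10 hepatocyte genes, none of which was empty, the H3K27ac lists had 152 (0 µM) and 193 (15 µM) summits, against 16 and 16 over 8 blood genes, 14 and 16 over 7 fibroblast, stellate and endothelial genes, and 1 and 0 over 6 neuron and muscle genes. In each list 4 of the blood windows and 3 of the fibroblast, stellate and endothelial windows were empty. ALB and AFP, neighbours whose windows overlap, gave 24 and 18 of the hepatocyte summits at 0 µM and 44 and 42 at 15 µM. The other 8 hepatocyte genes had 110 and 107, with 4 higher and 4 lower at 15 µM.

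Cells make serine from the glycolytic intermediate 3-phosphoglycerate, in the order PHGDH, PSAT1, PSPH. The SHMT enzymes then split serine into glycine and a one-carbon unit that folate carries. The MTHFD enzymes interconvert forms of that unit, so that it can serve purine, thymidylate and methionine synthesis. Choline feeds the same methyl group economy through betaine. The transcription factor ATF4 is a known activator of many of these genes when amino acids are short.

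RefSeq promoter windows (GRCh38.p14, 250 bases before to 50 after a transcription start) matched 6 of the 8 genes in 9 windows. SHMT2 and PSPH were not matched. Shown are the windows of the 4 genes with an H3K27ac summit within 1 kb of a start in either list, 5′ to 3′ on the gene's strand, with motif matches in capitals. They are PHGDH (chr1:119711684-119711983, plus strand), PSAT1 (chr9:78296875-78297174, plus strand), MTHFD2 (chr2:74198365-74198664, plus strand) and MTHFD1L (chr6:150866236-150866535, plus strand, the third of its 4 windows).
PHGDH: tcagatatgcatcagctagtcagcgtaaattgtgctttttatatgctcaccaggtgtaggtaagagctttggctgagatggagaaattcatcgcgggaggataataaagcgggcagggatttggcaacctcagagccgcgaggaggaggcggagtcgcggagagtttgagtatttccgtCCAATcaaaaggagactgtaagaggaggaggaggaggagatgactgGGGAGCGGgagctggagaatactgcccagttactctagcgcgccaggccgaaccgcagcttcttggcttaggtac
PSAT1: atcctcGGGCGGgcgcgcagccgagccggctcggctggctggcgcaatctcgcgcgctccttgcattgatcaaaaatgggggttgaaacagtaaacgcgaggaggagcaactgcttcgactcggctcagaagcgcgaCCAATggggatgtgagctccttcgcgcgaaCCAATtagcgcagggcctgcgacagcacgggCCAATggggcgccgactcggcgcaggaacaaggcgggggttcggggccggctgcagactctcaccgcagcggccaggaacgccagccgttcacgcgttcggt
MTHFD2: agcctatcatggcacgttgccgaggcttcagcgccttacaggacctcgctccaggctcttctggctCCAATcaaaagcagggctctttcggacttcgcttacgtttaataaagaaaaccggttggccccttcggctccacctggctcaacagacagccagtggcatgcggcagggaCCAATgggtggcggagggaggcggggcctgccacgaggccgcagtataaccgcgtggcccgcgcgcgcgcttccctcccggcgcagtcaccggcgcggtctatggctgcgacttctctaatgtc
MTHFD1L: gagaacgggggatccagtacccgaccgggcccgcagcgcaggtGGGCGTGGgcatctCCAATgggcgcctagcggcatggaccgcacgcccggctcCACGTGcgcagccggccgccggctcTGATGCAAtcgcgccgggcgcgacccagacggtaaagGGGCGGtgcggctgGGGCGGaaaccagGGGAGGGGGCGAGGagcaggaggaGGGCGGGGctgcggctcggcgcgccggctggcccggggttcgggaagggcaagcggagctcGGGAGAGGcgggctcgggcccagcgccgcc
The motifs searched on both strands were GGGCGG, a GC box, CCNCNCCC, a CACCC box, TGATGNAA, the core of the composite ATF4 and C/EBP site, CACGTG, an E-box, CCAAT, and TGACGTCA, a cAMP response element. The GC box and the CACCC box can overlap, as in the MTHFD1L window. A match describes letters and is not a binding site.

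CCAAT was the motif that all 6 matched genes shared, with at least 1 match each. It occurs in 34.6% of 34961 promoter windows and in 39.7% of 27195 genes of the table. These windows and genes are not limited to protein-coding genes, as the members are. PSAT1 had 3 matches, at 113, 83 and 52 bases before the start, MTHFD2 had 2, at 184 and 74, and PHGDH had 1, at 71. TGATGNAA, present in 3.62% of windows, was found in MTHFD1L alone, 129 bases before the start at 150866486. CACGTG, present in 7.27%, was found in MTHFD1 and MTHFD1L, and TGACGTCA, in 1.85%, in none. GGGCGG occurs in 45% and CCNCNCCC in 56.3% of windows. The windows of PHGDH and MTHFD2 had no GGGCGG, while the MTHFD1L window had 3. The CpG count was 15 in PHGDH, near the median of 14 over all windows, and 27 in MTHFD2, 37 in PSAT1 and 40 in MTHFD1L.

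H3K27ac summits at the gene ends, meaning within 1 kb of either annotated end, were found at fewer genes at 15 µM than at 0 µM. This held for the 8 genes and for all protein-coding genes. At 0 µM, 5 of the 8 genes had such a summit (62.5%, 24.5 to 91.5), against 28.3% of all protein-coding genes. At 15 µM it was 3 of 8 (37.5%, 8.52 to 75.5), against 16.2%. Of the 5, 3 had none within 2 kb of either end at 15 µM and are called lost (60%, 14.7 to 94.7), against 43.9% of all genes with an end summit at 0 µM. These intervals all cover their backgrounds, so the members' shares are not set apart from them. The lost ends were those of SHMT2, MTHFD2 and PHGDH, the kept ones those of PSAT1 and PSPH. MTHFD1L had an end summit at 15 µM only, 1 of 3 genes with one at that dose (33.3%, 0.84 to 90.6), where 10.5% of such genes gained theirs. That interval also covers its background. SHMT1 and MTHFD1 had none in either list.

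H3K4me1 was at the ends of most of the 8 genes at both doses. At 0 µM 7 had an H3K4me1 end summit (87.5%, 47.3 to 99.7), against 51.6% of all genes, and at 15 µM 7 (the same share and interval), against 52.9%. None was lost (0 to 41%), with a background of 8.92%, and none gained (0 to 41%), with a background of 10.9%. All these intervals cover their backgrounds, so the members' shares are not set apart from them. The genes without one at 1 dose still had one nearby, MTHFD1L at 1337 bp at 0 µM and PSPH at 1935 bp at 15 µM. Some of these summits lay at the far end of the gene and not at its start. PHGDH had its H3K4me1 end summits 1000 bp (0 µM) and 450 bp (15 µM) beyond its 3′ end, and at 15 µM those of PSAT1 and MTHFD1L lay 331 and 540 bp inside theirs.

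Counted at the transcription starts of the 6 genes in the promoter table, a count chosen after seeing the data, H3K27ac lay within 1 kb at 3 genes at 0 µM (PHGDH, PSAT1, MTHFD2) and at 2 at 15 µM (PSAT1, MTHFD1L). The shares over the 15812 protein-coding genes of the table were 30.6% and 17.4%. MTHFD2 and PHGDH lost theirs, against 43.8%, and MTHFD1L gained one, against 9.59%. H3K4me1 was at 5 starts at 0 µM, against 45.4%, and at 3 at 15 µM, against 45.1%. PSAT1 lost its H3K4me1 start summit, against 10.3%, and none was gained, against 12.1%.

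**Figure D1:**
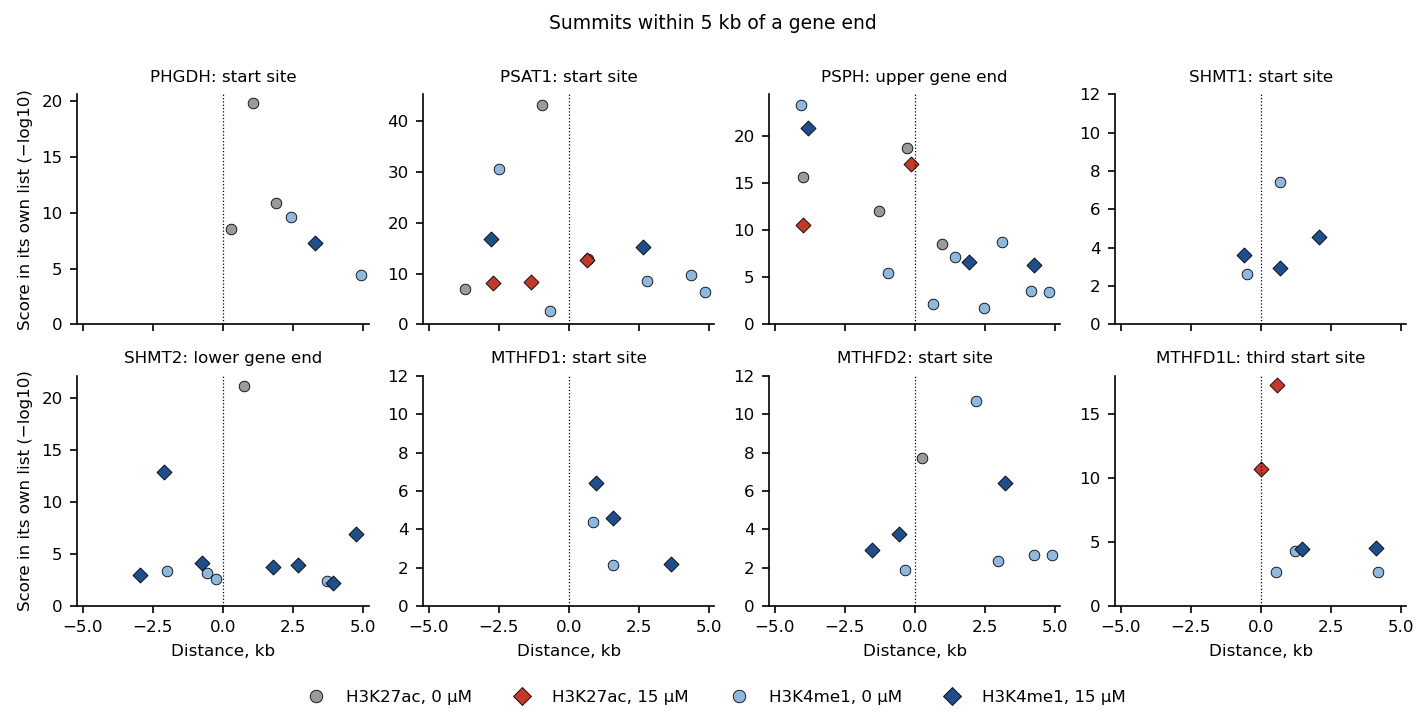
H3K27ac (grey circles, 0 µM; red diamonds, 15 µM) and H3K4me1 summits (light circles, 0 µM; dark diamonds, 15 µM) within 5 kb of 1 gene end per gene. The x axis is the distance in kb (from lower to higher coordinate for PSPH and SHMT2, where no strand was at hand) and the y axis the score in the summit's own list, which is not compared between lists. PHGDH, SHMT2 and MTHFD2 show grey circles and no red diamond, and MTHFD1L shows red diamonds and no grey circle.

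PHGDH, which opens the serine pathway by oxidising 3-phosphoglycerate, lies at chr1:119711934-119744215 (hg38, plus strand). At 0 µM its first 2 kb held 3 H3K27ac summits, at 284, 1067 and 1892 bp past the start printed above, with scores of 8.55, 19.8 and 10.9, and a further one lay 10054 bp into the gene, with a score of 8.41. At 15 µM the gene held none, and the summit nearest to the start was 54104 bp away. The gene-body counts were thus 4 and 0, a scaled difference of -3.09, at the 2.39th percentile of the 7367 genes with a summit in the body at either dose. The scaled difference is the 15 µM count minus the 0 µM count times the ratio of the list lengths. The strongest of the 4 summits missed the 1 kb limit, and among summits scoring at least 10 PHGDH had no end summit to lose. A long noncoding RNA gene has an end 88 bp before the PHGDH start, so the end summit cannot be assigned to 1 of the genes. H3K4me1 was absent from the first 2 kb at both doses. In the body it had 13 summits at 0 µM and 6 at 15 µM (scaled -7.23, 3.93rd percentile), in 5 and 3 bins of 5 kb. The PHGDH window counts of H3K27ac were 17 at 0 µM and 12 at 15 µM (scaled -1.13, 32nd percentile), and those of H3K4me1 were 28 and 22 (scaled -6.49, 10.1st percentile), in 12 and 14 bins.

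PSAT1, the aminotransferase of the second step, lies at chr9:78297125-78330093 (hg38, plus strand) and kept its end. At 0 µM an H3K27ac summit with a score of 43.2 lay 963 bp before the start, with 3.33% of that list scoring higher, and another, with a score of 12.9, lay 688 bp past it. At 15 µM the summit before the start was at 1339 bp, outside the 1 kb limit, with a score of 8.27 and 73% of its list scoring higher. The one past the start lay 42 bp from its partner, with a score of 12.6. Within 5 kb of the start each list had 3 summits. The window counts were 5 at 0 µM and 6 at 15 µM (scaled 2.14, 90th percentile). Of these, 1 and 2 lay within 2 kb of an end of CEP78, a centrosome gene upstream. H3K4me1 had 32 and 30 summits in the window and 9 and 9 in the gene. An H3K4me1 summit stood 679 bp before the start at 0 µM, while at 15 µM the nearest was 2633 bp past it.

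PSPH, the phosphatase that releases free serine, lies at chr7:56011064-56051444 (hg38) and held the most H3K27ac of the 8 genes. In its window the 0 µM list had 21 summits and the 15 µM list 18. These counts stood at the 99.1st and 98.8th percentiles of all genes, and the median gene had 2 and 1. At the upper gene end a summit lay 264 bp inside at 0 µM, with a score of 18.8, and 148 bp inside at 15 µM, with a score of 17. A pair of further end summits, 990 bp beyond that end and 336 bp beyond the lower one, was listed at 0 µM only. CCT6A, a subunit of the chaperonin TRiC, has an end 321 bp from this end of PSPH, so the end summits cannot be assigned to 1 of the genes. Inside CCT6A, 7 H3K27ac summits were listed at 0 µM against 3 at 15 µM.

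Inside PSPH the direction was the opposite, with 8 H3K27ac summits at 0 µM and 12 at 15 µM, or 1.98 and 2.97 per 10 kb of gene (scaled 5.82, 98th percentile). They occupied 6 and 5 bins of 5 kb, and among summits scoring at least 10 the counts were 7 and 7. The count at 15 µM was thus larger only without that filter, and it lay in no more bins. The same score limit need not be equally strict in both lists. Of the pooled H3K27ac summits in the gene, 60% (36.1 to 80.9) came from the 15 µM list, an interval that covers the 43.6% of the lists. The highest summit of the gene had a score of 40.1 at 56034466 at 0 µM and of 46.3 at 56033878 at 15 µM, 588 bp apart, where 4.02% and 0.638% of the lists scored higher. H3K4me1 had fewer window summits at 15 µM, 34 against 44 at 0 µM (scaled -10.8, 2.76th percentile), in 20 and 17 bins. The 15 µM share was 43.6% (32.4 to 55.3), an interval that covers the 50.4% of the lists. Among H3K4me1 summits scoring at least 5 the window counts were 13 and 12.

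SHMT1, the cytosolic serine hydroxymethyltransferase, lies at chr17:18327873-18363550 (hg38, minus strand) and had no H3K27ac summit in the gene in either list. The window held 2 at 0 µM, with scores of 8.4 and 7.53, and 0 at 15 µM. They lay 420 bp from an end of TOP3A, a DNA topoisomerase gene, and 112 bp from an end of SMCR8, which overlaps SHMT1 by 183 bp at its 3′ side. H3K4me1 flanked the start in both lists. At 0 µM summits lay 504 bp before it and 690 bp past it, and at 15 µM 606 and 677 bp. The window had 8 H3K4me1 summits at 0 µM and 15 at 15 µM (scaled 6.86, 90.5th percentile), but in 7 and 7 bins, and 2 and 1 scored at least 5.

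SHMT2, the mitochondrial hydroxymethyltransferase that supplies most one-carbon units in many proliferating cells, lies at chr12:57229711-57234935 (hg38). Its window held 1 H3K27ac summit at 0 µM, inside the gene, 766 bp from the lower end, with a score of 21.2. At 15 µM the nearest summit was 76786 bp from an end, which makes this the lost end with the highest score among the 8 genes. The far end of the gene overlaps COXFA4L2 by 32 bp, and no H3K27ac end summit was listed for COXFA4L2 at either dose. Within 500 bp of the ends, SHMT2 had no summit to lose. H3K4me1 window counts were 28 (0 µM) and 29 (15 µM; 69.7th and 70.2nd percentiles of all genes), and 1 and 4 summits lay in the gene.

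MTHFD1, the trifunctional cytosolic enzyme, lies at chr14:64388353-64460025 (hg38, plus strand). It had no H3K27ac summit in the gene or at an end. Those in its window, 3 at 0 µM and 1 at 15 µM, lay over 40 kb from the gene, nearest to ZBTB1, a zinc finger gene, and the highest had a score of 22.6 at 0 µM and of 11.9 at 15 µM. H3K4me1 stood past the start at matching places, 870 and 1568 bp at 0 µM and 978 and 1580 bp at 15 µM. The gene held 9 H3K4me1 summits at 0 µM and 12 at 15 µM, and the window 22 and 25.

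MTHFD2, the mitochondrial dehydrogenase and cyclohydrolase that is high in embryonic and tumour tissue, lies at chr2:74198615-74217565 (hg38, plus strand). The 0 µM list had a single H3K27ac summit in its window, 260 bp past the start printed above, with a score of 7.71 and 79.1% of the list scoring higher. The 15 µM list also had 1, but 20168 bp before the start and 432 bp from an end of MOB1A, a Hippo pathway adaptor, with a score of 11.4. Counting windows alone would thus show 1 and 1, while only the 0 µM list had a summit at the start. SLC4A5, a bicarbonate transporter gene, overlaps the far end of MTHFD2, with their ends 1323 bp apart, and had no H3K27ac end summit at either dose. With the lists set to equal length, the weak 0 µM summit dropped out and MTHFD2 had no end to lose. H3K4me1 lay 340 bp before the start at 0 µM and 577 bp before it at 15 µM, and the window held 17 and 18.

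MTHFD1L, the mitochondrial formate-producing synthetase, lies at chr6:150865702-151101887 (hg38, plus strand) and differed in the other direction. At 15 µM H3K27ac summits lay at 150866512, with a score of 10.7, and at 150867062, with a score of 17.3. The first is 26 bp past the start at 150866486, inside the window printed above. At 0 µM the nearest summit to that start was 15815 bp into the gene, with a score of 8.65. A summit deep in the gene was nearly identical in the lists, at 151068304 at 0 µM and 151068303 at 15 µM, with scores of 26.3 and 9.15. The gene counts were 2 and 4. Measured from the annotated gene start instead of the start site, the summit lies at 810 bp, so within 500 bp no end was gained. H3K4me1 in the gene had 59 summits at 0 µM and 53 at 15 µM (scaled -7.04, 4.11th percentile), in 28 and 29 bins. The 15 µM share was 47.3% (37.8 to 57), an interval that covers the 50.4% of the lists.

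**Figure D2:**
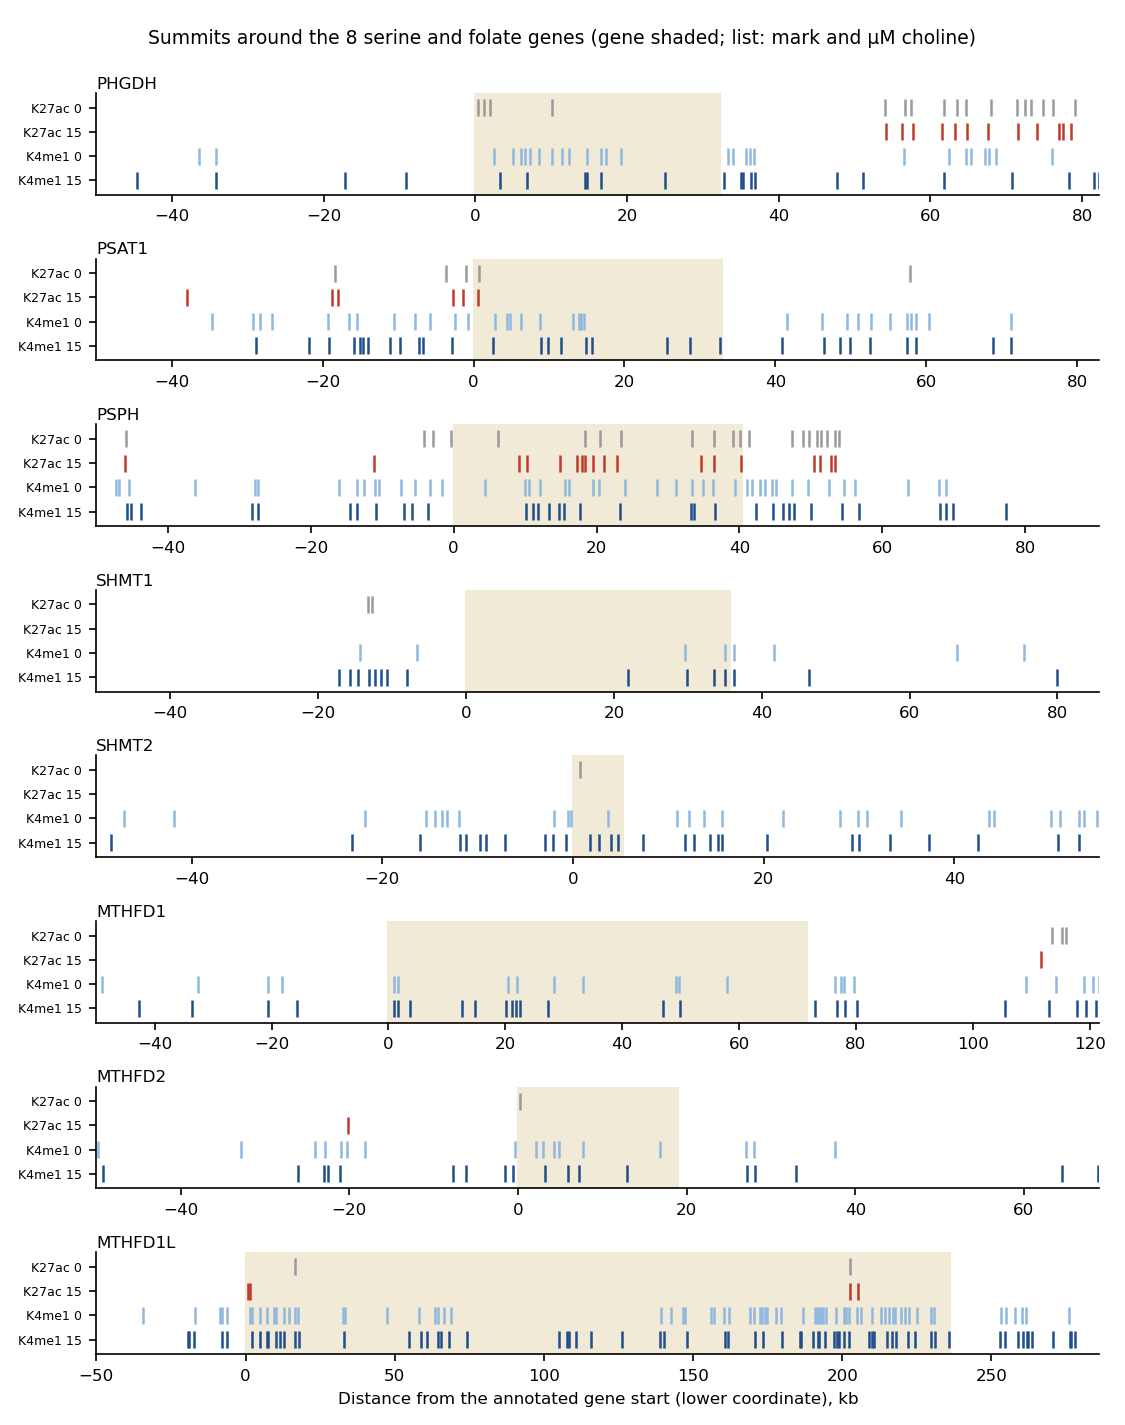
Positions of all summits in the gene (shaded) and within 50 kb of it for the 8 genes, 1 row per mark and dose, with distance from the lower annotated coordinate in kb on the x axis. MTHFD1L, 236 kb long, is drawn whole. The 4 H3K27ac summits inside PHGDH appear at 0 µM only.

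Added over the 8 genes, the 50 kb windows gave a 15 µM share close to that of the whole lists. All 8 had an H3K27ac summit at either dose, as did 67.2% of all genes, and 2 (SHMT1 and SHMT2) had it at 0 µM only, where 23.8% of such genes did. Together they counted 52 at 0 µM and 42 at 15 µM, so 44.7% (34.4 to 55.3) of the pooled summits came from the 15 µM list, against 43.6% for the lists as a whole. The median scaled difference was -0.27, against -0.63 over the 13428 genes with a window summit. MTHFD1L (2.46), PSAT1 (2.14), PSPH (1.78) and MTHFD2 (0.228) had positive values, and PHGDH (-1.13), MTHFD1 (-1.32), SHMT1 (-1.54) and SHMT2 (-0.772) negative ones. Of these, MTHFD1L and PSAT1 kept a positive sign under all 5 alternative windows, scores, list lengths and bins, and SHMT1 stayed negative or at 0. The sign turned for PSPH (-0.915), MTHFD1 (0.257) and PHGDH (0.0565) in 5 kb bins, for MTHFD2 in 20 kb (-0.772) and 100 kb (-1.32) windows, and for SHMT2 (1.82) and PHGDH (1.10) in 100 kb windows. Positive values were found for 36.4% of all such genes, and 4 of 8 members had one. PHGDH and PSPH supplied 38 of the 52 summits at 0 µM and 30 of the 42 at 15 µM. Inside the genes, 6 members had a summit at either dose, against 36.9% of all genes, and of these 3 (SHMT2, MTHFD2 and PHGDH) had it at 0 µM only, against 34.3%. The body sum was 17 and 17, with 3 members positive, where 42.7% of genes with a body summit were. Without PSPH, a choice made after seeing the data, the sum was 9 and 5, so the 15 µM share went from 50%, above the 43.6% of the lists, to 35.7%, below it.

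For H3K4me1 all 8 windows had summits in both lists. Summits were found in the windows of 99.1% of all genes, and at 0 µM only in 0.92% of those. The counts were 228 at 0 µM and 220 at 15 µM, 49.1% (44.4 to 53.8) from the 15 µM list against 50.4% overall. Scaled differences were positive for 4 members, where 49.3% of all genes were positive. They ranged from -10.8 at PSPH to 6.86 at SHMT1. Of the 8 signs, those of PSPH and MTHFD1L held under all 5 alternatives, and those of PHGDH (1.74) and SHMT1 (-0.151) were among those that turned in 5 kb bins. All 8 bodies had H3K4me1 at both doses, against 85.6% of all genes with it at either dose and 6.02% of those with it at 0 µM only. The body sums were 114 and 103, and 3 members were positive, against 43.6% of genes with a body summit.

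**Figure D3:**
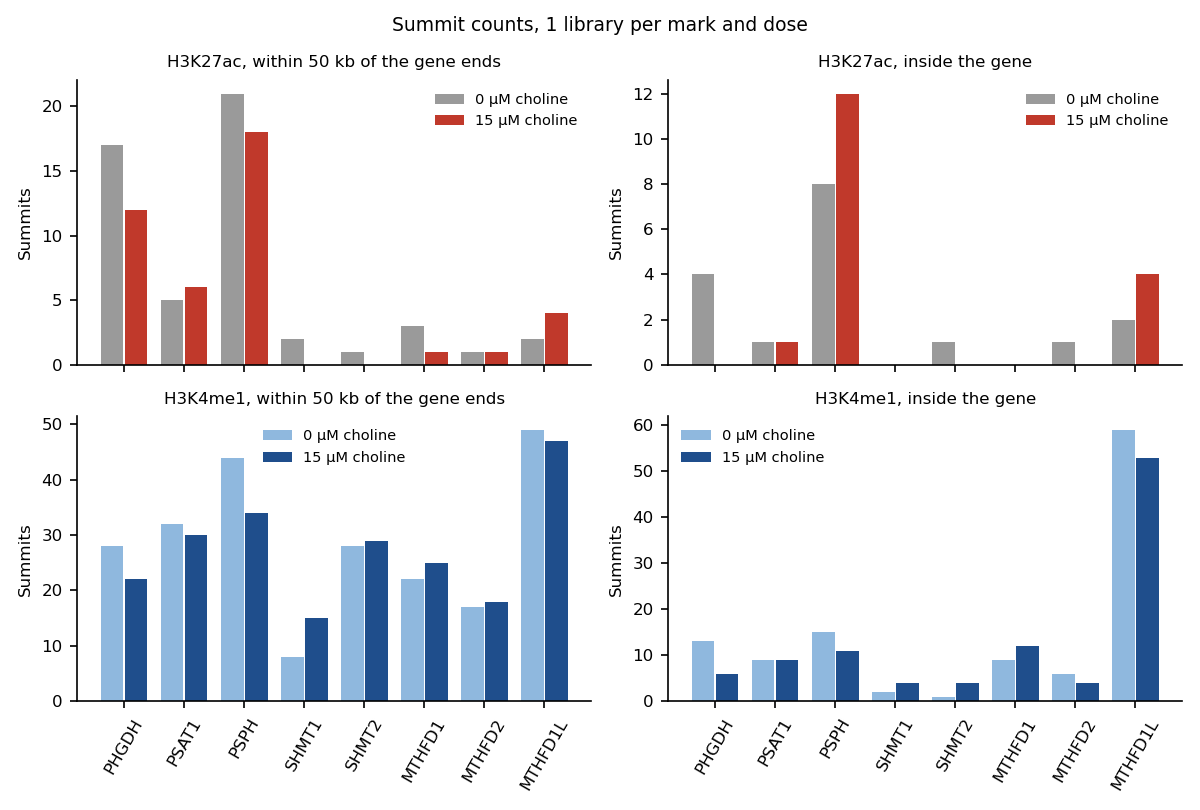
Summit counts per gene at 0 µM and 15 µM for H3K27ac (top) and H3K4me1 (bottom), within 50 kb of the gene ends (left) and inside the gene (right). Each bar is 1 library, so there is no error bar. PHGDH and PSPH hold most H3K27ac summits, and the body counts of PHGDH (4 and 0) and PSPH (8 and 12) run in opposite directions.

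**Figure D4:**
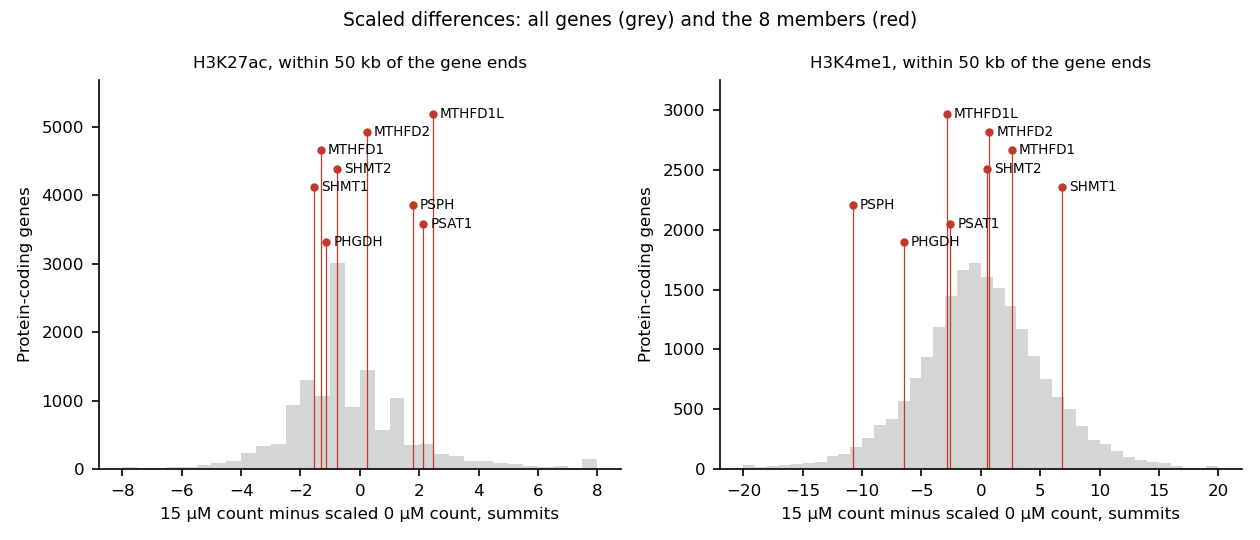
Scaled difference in summits (x axis, 15 µM count minus the 0 µM count times the ratio of list lengths) for all genes with a window summit (grey, number of genes on the y axis) and the 8 members (red pins, whose heights carry no value). Genes beyond the drawn range are added to the outermost bars. In H3K27ac the members lie between -1.54 and 2.46, and in H3K4me1 between -10.8 and 6.86.

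Single summits were found again in the other list about as often near these genes as elsewhere. For H3K27ac, 20 of 52 summits at 0 µM had one at 15 µM within 500 bp (38.5%, 25.3 to 53), and 22 of 42 at 15 µM had one at 0 µM (52.4%, 36.4 to 68). The whole lists had 38.7% and 50.7%. PHGDH gave 9 of the 20, none of them inside the gene, PSPH gave 7, PSAT1 3 and MTHFD1L 1. An H3K4me1 summit of the same dose lay within 1 kb of 59.6% (45.1 to 73) of the H3K27ac summits at 0 µM and of 50% (34.2 to 65.8) at 15 µM, against 65.2% and 58.5% of the whole lists. Of the lost end summits, that of MTHFD2 met this limit, at 600 bp from H3K4me1, and those of SHMT2, at 1010 bp, and PHGDH, at 2145 bp, did not.

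The share of lost ends differed with the score, and the members' ends were placed on that scale. Over all genes, the share of lost H3K27ac ends was 68.1% (65.6 to 70.5) where the best 0 µM end summit scored 5 to 10, 47.2% (45.3 to 49.2) at 10 to 20, 19.9% (17.8 to 22.2) at 20 to 40 and 4.47% (2.4 to 7.52) at 40 or more. PHGDH and MTHFD2 were in the lowest class, where most ends were lost. PHGDH was there because its summit with a score of 19.8 lay at 1067 bp, past the 1 kb limit, and that score belongs to the class of 10 to 20. PSPH, in the next class, and PSAT1, in the highest, kept theirs. PSAT1 was there through its summit with a score of 43.2 at 963 bp, whose 15 µM counterpart lay at 1339 bp, past the 1 kb limit. The PSAT1 summit within 1 kb at 15 µM was the partner of the 0 µM summit with a score of 12.9. That score belongs to the class of 10 to 20. SHMT2 was lost from the class of 20 to 40, in which 262 of 1315 genes lost theirs.

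**Figure D5:**
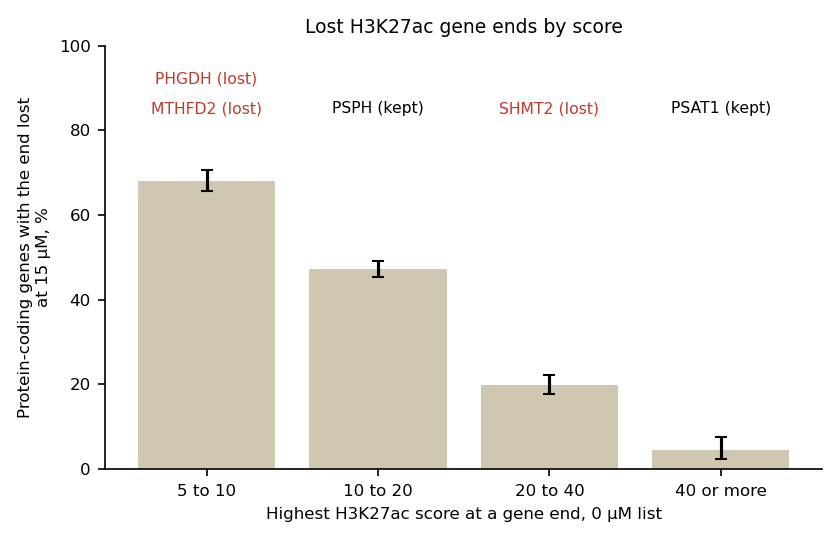
Share of protein-coding genes whose H3K27ac end was lost at 15 µM (y axis, %) by the highest score at a gene end in the 0 µM list (x axis), with exact 95% intervals that cover counting error only. The share falls from 68.1% to 4.47%, and the 5 members with an end at 0 µM are written above their class.

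The rest of the pathway was read from a list of 43 other enzymes, carriers and regulators of serine, glycine and folate metabolism. At 0 µM 18 had an H3K27ac end (41.9%) and at 15 µM 8 (18.6%), against the 28.3% and 16.2% of all genes given above. Of the 18, 8 were lost (44.4%, 21.5 to 69.2), next to the background of 43.9%, and none was gained. The lost ends included those of FPGS, which adds glutamates to folate, SLC25A32, its mitochondrial carrier, SDSL and SRR, which act on serine, CTH, of cysteine synthesis, and the transcription factors ATF4 and ATF5. The best end scores of these 7 at 0 µM ran from 8.41 at SDSL to 34.4 at ATF5. Requiring absence within 10 kb, SDSL and CTH were no longer lost, with 15 µM summits at 4206 and 4470 bp. SDSL and SLC25A32 had no end to lose among summits scoring at least 10, and ATF5 had none within 500 bp. In the FPGS, SLC25A32, SRR, ATF4 and ATF5 windows no H3K27ac summit was listed at 15 µM, against 1 to 3 at 0 µM. These genes were picked among those with a lost end, so fewer window summits at 15 µM are partly given by the choice. Over all genes with a window summit at either dose, 23.8% had it at 0 µM only. H3K4me1 ends numbered 27 at 0 µM (62.8%, 46.7 to 77) and 31 at 15 µM (72.1%, 56.3 to 84.7), against 51.6% and 52.9% of all genes. The 0 µM interval covers its background and the 15 µM interval lies above it, in a list chosen with results of these data known. No H3K4me1 end was lost, with a background of 8.92%. Of the 31, 2 were gained, at ASNS and SDS, with a background of 10.9%. The windows held 137 and 109 H3K27ac summits and 1043 and 1107 H3K4me1 summits. On the scaled difference of H3K27ac 13 genes were positive and 22 negative, near the 36.4% positive over all genes with a window summit.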

How the data were processed

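H3K27ac and H3K4me1 ChIP-seq of Huh7 cells at 0 and 15 µM choline was read from 4 summit lists, 1 library each. The authors deposited per summit a position and a score in −log10 units, in the layout of MACS2 summit files. The kind of p or q behind it, calling settings and use of input are not given in the sources used here. Bowtie, Picard, deepTools, MACS2 and hg38 appear in the submitters' processing notes, with no tool versions. The other 8 of 12 samples were not analysed here.

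Summits on chromosomes 1 to 22 and X were written 1-based and placed against a RefSeq gene table (GRCh38.p14), which gives gene ends without exons. Exon, intron and UTR positions are therefore not given. An end was called at 1 kb and as lost or gained when the other list had none within 2 kb. Windows spanned 50 kb beyond each end and inward. Percentiles are among all genes with a summit there at either dose, except those of counts, which are among all genes. Python 3.11.15, pandas 2.3.3, NumPy 2.4.6, SciPy 1.17.1 and matplotlib 3.10.9 were used, and the measures were checked on simulated data. The members and lists were chosen with earlier results of these data known. Named are all members, list genes with lost or gained H3K27ac ends, and protein-coding neighbours within 2 kb or nearest to a member's highest H3K27ac summit. Some genes that this rule names are not reported here. ASNS, SDS, and in the closing section AMT and GLDC, were named after their values were seen. Alternatives were other distances, windows and scores, and equal list lengths.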

Additional observations from a re-analysis of the deposited data

How the results depend on the processing

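Of 118 alternatives over 22 results, 89 stayed near the reported value and 29 moved. The shares from the 15 µM list lay on the other side of the whole-list share for H3K27ac windows at 20 kb (42.1% against 43.6%), H3K27ac bodies in 5 kb bins (40.9% against 42.6%) and without PSPH (35.7% against 43.6%), and H3K4me1 windows at 20 kb (50.9% against 50.4%). For H3K27ac windows in 5 kb bins both shares were 42.6%. H3K4me1 windows had 137 summits at 0 µM and 142 at 15 µM at 20 kb, and 184 and 186 without PSPH. The cause was not tested, except where the construction gives it: closer or stricter limits leave fewer summits. For the 8 genes, within 500 bp of an end H3K27ac was at 3 genes at 0 µM and 1 at 15 µM (21.8% and 11.4% of all genes), with 0 gained (10.1%), and H3K4me1 at 2 and 3 (26.9% and 27.7%). With stricter scores (10 for H3K27ac, 5 for H3K4me1), H3K27ac was at 3 genes at 0 µM (21.1%) and 1 was lost (SHMT2; 54.9%), and H3K4me1 was at 3 and 2 (19.8% and 18.5%), with 2 lost (SHMT1, PHGDH; 26.5%) and 2 gained (SHMT2, MTHFD1; 25.7%). At equal list lengths 1 H3K4me1 end was lost (PSAT1; 9.21%). With transcription starts only, chosen after seeing the data and covering the 6 genes in the promoter table, H3K27ac was at 3 genes at 0 µM, and H3K4me1 was at 3 at 15 µM with 1 lost (PSAT1). Requiring absence within 10 kb kept SHMT2, MTHFD2 and PHGDH lost and MTHFD1L gained, against 34.3% and 5.7% of all genes.

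For the 43 other genes, H3K27ac gained 1 end at equal list lengths (AMT), where 14.5% of all genes with an end at 15 µM gained theirs. H3K4me1 was at 13 and 19 of them within 500 bp (26.9% and 27.7% of all genes). With the stricter score it was at 15 and 12 (19.8% and 18.5%), with 5 lost and 4 gained (26.5% and 25.7% of all genes). It had 1 lost end at a 2 kb limit (GLDC; 10.5% over all genes) and 0 gained with absence within 10 kb (2.1%). Near the 8 genes, 36.5% of H3K27ac summits at 0 µM and 31% at 15 µM had H3K4me1 within 500 bp. The whole lists had 38.9% and 34.1%. Within 2 kb the shares were 88.5% and 76.2%, against 88.2% and 82.7%. With the stricter score they were 50% (31.9 to 68.1) at 0 µM, against 51.9%, and 25% (9.77 to 46.7) at 15 µM, against 49%. Only that last interval did not cover the share of its whole list.

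No paired analysis was possible because each mark and dose has 1 library and the labels carry no replicate numbers, so leaving out a replicate was not run. Read depth, enrichment and chromatin cannot be told apart in these lists.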
